A study of Homo sapiens with 12 samples.

Results

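This report describes 4 DASHed single-cell libraries of HCT116, a human colon carcinoma cell line, set against 2 DASHed mini-bulk libraries of the same line. These are 6 of the 12 libraries in the series, chosen by their sample labels and not by any measured value. All 6 were made from total RNA with MATQ-seq, an amplification protocol that also captures RNA without a poly(A) tail, and all 6 went through scDASH, a depletion step that uses Cas9 to cut away ribosomal RNA (rRNA) sequence. The single cells were sorted by FACS. Mini-bulk means a small pool of cells, and the number of cells in a pool is not given in the sources used here. HCT116 carried no other treatment or genetic change in the labels. Each single-cell library is 1 cell and no culture is named for any library, so the cells count as 1 sample, no test between the groups was made, and the values are given per library. Intervals on ratios are exact 95% intervals that cover counting error only.

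A pool averages the transcripts of its cells, while a single cell holds its own snapshot: transcripts made in bursts, or in 1 phase of the cell cycle, can be abundant in a cell and missing in its neighbour. In mini-bulk, fewer cells with an RNA and less of it per cell cannot be told apart. RNA species also differ in what can be lost between lysis and cDNA, since few copies of each are present in 1 cell. Messenger RNAs of ribosomal proteins and of mitochondria are among the most abundant in a growing cell line, whereas long nuclear RNAs such as MALAT1 and NEAT1 stay in nuclear bodies.

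The single cells had 1018815 to 1573513 estimated counts in all, against 1087514 and 837450 in mini-bulk. rRNA took 20.5 to 24.4% of the counts in the cells and 24.1 and 21.8% in mini-bulk. The make-up of that remainder differed: 28S rRNA held 6.94 to 9.71% of counts in the cells and 5.58 and 4.62% in mini-bulk, while 18S rRNA held 4.78 to 7.79% in the cells and 11.8 and 10.4% in mini-bulk, with no overlap in either case. The 4 lincRNA genes FP236383.2, FP236383.3, FP671120.3 and FP671120.4, taken as lying inside 18S rRNA, are not part of these rRNA shares. They held 14.0, 9.33, 9.82 and 14.8% of counts in cells 1 to 4, against 18.6 and 16.2% in mini-bulk, with every cell below both pools. After rRNA and these 4 genes were left out, 714514 to 1070706 counts remained per cell, against 622994 and 518994 in mini-bulk. All levels below are CPM, counts scaled to a common total of 1000000, taken over the remaining counts. The same-numbered DASHed and untreated cells resembled each other across 6542 genes (Pearson r of log2(CPM + 1) between 0.917 and 0.936), far more than cells of different numbers did (0.316 to 0.391). The untreated cells are therefore no independent repeat of these cells. Markers of the line's epithelial origin were present: KRT8 had 1148, 879, 3510 and 746 CPM in cells 1 to 4, against 1172 and 1328 CPM in mini-bulk. KRT18 and KRT19 had counts in every library, CLDN7 and EPCAM in 3 of the 4 cells, and CDH1, E-cadherin, was nearly absent from the cells. KRT8, KRT18 and CLDN7 share at least 10% of their sequence or exonic bases with other genes, which is what uncertain means for every gene below. Markers of blood, endothelium, fibroblasts, liver and nervous tissue summed to 7.0 to 74.7 CPM in the cells and 78.7 and 90.6 CPM in mini-bulk, with at most 6 of 26 markers having a count in any library.

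At equal depth a single cell showed fewer genes than mini-bulk, and joining cells closed most of the gap. With every library thinned to 518994 counts, cells 1 to 4 had 11045, 9238, 11448 and 11406 genes with at least 1 count, against 16510 and 15886 in mini-bulk. The mean of the cells was 0.666 times that of mini-bulk, and every cell lay below both pools. For genes with at least 10 counts the gap was smaller: 5462, 4668, 5789 and 5555 genes in the cells, against 6845 and 6510 in mini-bulk, a ratio of 0.804. When 4 cells were joined and thinned to the same total, 14261 genes had a count, against 16945 for both pools joined. At 10 counts the 4 joined cells reached 6658 genes, which lies between the mini-bulk libraries. Cell 2 had the fewest genes and also the fewest counts before thinning.

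**Figure D1:**
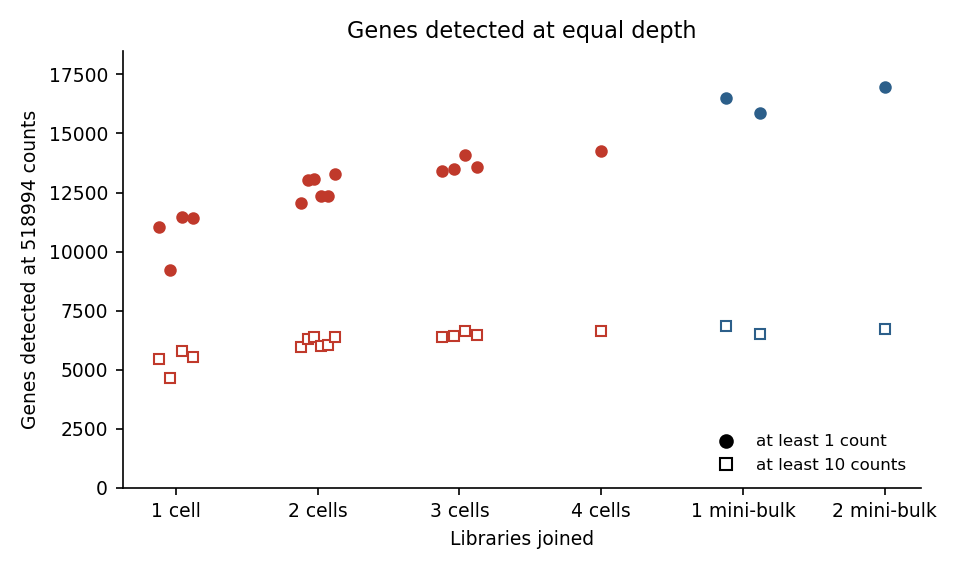
Genes detected (y axis, number of genes) when 1 to 4 single cells (red) or 1 to 2 mini-bulk libraries (blue) were joined and thinned to 518994 counts (x axis, libraries joined); each point is 1 library or 1 combination, filled circles are genes with at least 1 count and open squares genes with at least 10 counts. Joined cells reached 14261 genes at 1 count, below both mini-bulk libraries, and 6658 genes at 10 counts, between them.

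Levels followed the same course. Across 6542 genes, r of log2(CPM + 1) was 0.335 to 0.392 between any 2 cells, 0.470 to 0.604 between a cell and a mini-bulk library, and 0.887 between the mini-bulk libraries. Summed over the 4 cells, it rose to 0.733 against summed mini-bulk, with medians of 0.535, 0.618 and 0.688 for 1, 2 and 3 cells. Genes are not independent replicates, and these values describe the libraries alone.

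For each gene the ratio of summed cells to summed mini-bulk was taken, and a gene was called when the ratio was at least 2-fold and every cell lay on the same side of both mini-bulk libraries. Genes entered with a mean of at least 20 CPM over the 2 inputs, which 6542 did. Of these, 169 (2.58%) were called higher in single cells and 493 (7.54%) lower. A gene low in 1 group passed this filter only through the other: 38 of the 169 had under 20 CPM in summed mini-bulk, and 257 of the 493 under 20 CPM in summed cells. By the ratio alone, 1118 (17.1%) were higher and 897 (13.7%) lower. By lack of overlap alone, 237 (3.62%) were higher and 608 (9.29%) lower. A call therefore needs all 4 cells on 1 side, and a gene high in 1 cell only is not called. The split leans on scaling: 224 higher and 385 lower genes were called of 6496 that entered with TMM factors. The calls were 246 and 246 of 5516 with DESeq2 size factors, and 210 and 241 of 5163 when CPM were taken over all rows with rRNA. The median log2 ratio of all genes was 0.07, and 0.20, 0.30 and 0.23 under those 3 scalings. GC content differed little with the calls: the median GC content of transcripts was 55.1% for higher, 54.3% for lower and 54.2% for all genes. The median transcript was 797.5 bases for higher, 1077 for lower and 974 for all genes. Of 102 genes under 500 bases, 6.86% were called higher and 7.84% lower, against 1.18% and 8.40% of genes of 2000 bases or more. The log2 ratio itself hardly followed length: its median was -0.086 for genes under 500 bases and -0.0023 for those of 2000 or more, with a Spearman rho of -0.029 across all 6542 genes. The part of length in the calls was not tested.

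**Figure D2:**
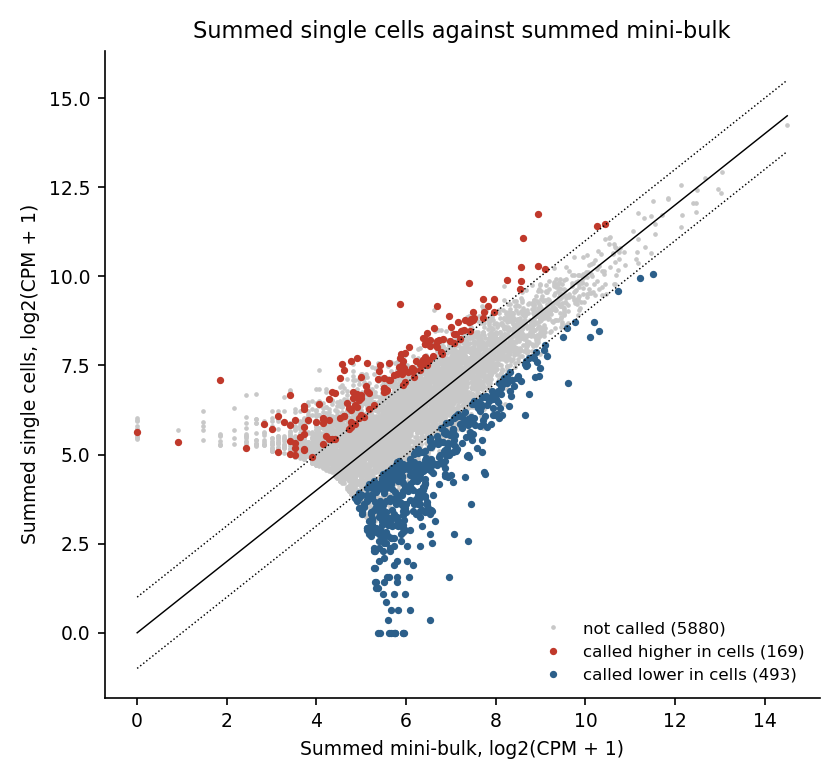
Level of each of the 6542 genes in summed single cells (y axis) against summed mini-bulk (x axis), both as log2(CPM + 1); red points are the 169 genes called higher in cells, blue points the 493 called lower, grey points the rest, the solid line marks equal levels and the dotted lines a 2-fold difference. Genes near 0 in cells that were well measured in mini-bulk form the lower tail.

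mRNAs of cytosolic ribosomal proteins, the protein building blocks of the translating ribosome, were the gene group with the most calls: 27 of the 80 that entered were called higher and 0 lower, against 2.58% and 7.54% of all genes. Their median log2 ratio was 0.95, against 0.07 over all genes. Together they held 3.02, 2.51, 2.69 and 4.38% of counts in cells 1 to 4, against 2.02 and 1.66% in mini-bulk, a ratio of 1.71. RPS15, a protein of the small subunit, had 348, 961, 359 and 701 CPM in the cells, against 125 and 75.1 CPM in mini-bulk. Every cell stood above both pools, and the ratio was 5.58 (4.63 to 6.78). RPL19, of the large subunit, had 947, 899.9, 752 and 1189.8 CPM in the cells, against 372 and 222 CPM in mini-bulk, with a ratio of 3.12 (2.79 to 3.49). RPLP0, a protein of the stalk that binds elongation factors, was among the most abundant members: 2308, 1734, 2978 and 3478 CPM in the cells, against 1255 and 1185 CPM in mini-bulk, a ratio of 2.22 (2.10 to 2.35). RPL34 was called with a ratio of 4.72 (2.80 to 8.57) on 224 and 15 counts. Summed mini-bulk held 13.1 CPM of RPL34, so it entered only through the cells and had to stand higher there. The 27 called members had ratios between 2.03 and 5.58. RPS15, RPS4X, RPL19, RPLP0 and RPS12 share sequence with other genes and are uncertain.

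Under the 3 other scalings 34 to 36 members were called higher, all 27 among them, and 0 lower, with medians 0.87 to 0.88 above that of all genes. Over all genes, 224 of 6496 were called higher with TMM factors, 246 of 5516 with DESeq2 size factors and 210 of 5163 over all rows. Without cell 4, the cell with the largest share, 17 of 79 were called higher, against 273 of 6481 genes in all. RPLP0 was not called without that cell. Of the 80, 39 had a ratio of at least 2 and 72 a log2 ratio above 0. Ribosomal protein mRNAs are short, with a median transcript of 671 bases, and 3.53% of all genes of 500 to 700 bases were called higher.

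Ribosomal protein genes are known for starting transcription in a run of pyrimidines. RefSeq (GRCh38.p14) has a start-site window for 64 of the 80 genes, and those of the 6 with the largest ratios among called members are shown. The windows run from 10 bases before to 20 bases from the start, on the gene's strand, and capitals mark CTTTC, the motif searched:
RPS15 (chr19:1438386-1438415, plus strand): aggcgcggaccaaagcgatctcttctgagg
RPL34 (chr4:108620566-108620595, plus strand): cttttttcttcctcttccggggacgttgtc
RPS4X (chrX:72277229-72277258, minus strand): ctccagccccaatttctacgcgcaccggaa
RPS7 (chr2:3575250-3575279, plus strand): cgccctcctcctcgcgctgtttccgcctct
RPS12 (chr6:132814559-132814588, plus strand): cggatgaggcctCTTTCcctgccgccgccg
RPL10A (chr6:35468391-35468420, plus strand): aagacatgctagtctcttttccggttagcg
Of these 6, RPS12 alone held the motif. CTTTC stood in the window of 29 of the 64 genes (45.3%), against 1110 of 27305 promoters (4.07%), or 7.15% with the opposite strand counted too. Called members held it in 4 of 23 windows and members not called in 25 of 41. A match is a description of the letters and no match says nothing about the start actually used.

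mRNAs of mitochondrial ribosomal proteins and of the nuclear-encoded respiratory chain had higher medians than all genes as well, with fewer calls. Of the 44 mitochondrial ribosomal protein genes that entered, 6 were called higher (13.6%) and 1 lower, against 2.58% and 7.54% of all genes, with a median log2 ratio of 0.57. MRPS34, of the small mitochondrial subunit, had 45.3, 196, 278 and 230 CPM in the cells, against 22.5 and 30.8 CPM in mini-bulk, a ratio of 7.46 (5.18 to 11.1). MRPL49 went the other way, with 30.6, 1.40, 13.1 and 13.8 CPM in the cells, against 96.3 and 65.5 CPM in mini-bulk, 5.51-fold lower (3.90 to 7.85). Summed cells held 14.9 CPM of MRPL49, so it entered only through mini-bulk and had to stand lower in the cells. It shares exonic bases with neighbouring genes and is uncertain. Of 27 nuclear genes of the respiratory chain, 4 were called higher (14.8%) and 0 lower, with a median of 0.73 and a share 1.67 times that of mini-bulk. Taken cell by cell, their median was 1.04, -0.11, 0.088 and 0.91 in cells 1 to 4. For mitochondrial ribosomal proteins it was 0.22, 0.026, 0.64 and 0.92. NDUFB10, a subunit of complex I, had 107, 225, 114 and 313 CPM in the cells, against 49.8 and 46.2 CPM in mini-bulk, and a ratio of 3.95 (3.0 to 5.29). The medians of both groups stood 0.41 to 0.77 above that of all genes under the 3 other scalings.

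The mRNAs encoded by mitochondrial DNA itself did not share this pattern. Of 12 that entered, 0 were called, the median log2 ratio was 0.09, and they held 1.36 to 1.90% of counts in the cells, against 1.94 and 2.01% in mini-bulk. MT-CO1, a subunit of cytochrome c oxidase, had 4787, 5590, 4035 and 6396 CPM in the cells, against 8425 and 8333 CPM in mini-bulk. All 4 cells lay below both pools, but the ratio of 0.617 (0.602 to 0.633) stayed short of 2-fold. MT-ND1 lay on the other side, with 1819, 1769, 1903 and 2864 CPM in the cells, against 1417 and 1337 CPM in mini-bulk, and a ratio of 1.54 (1.46 to 1.63). Both share sequence with nuclear copies and are uncertain. Under each of the 3 other scalings 1 member was called higher.

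Of the 22 mitochondrial transfer RNAs, 17 had counts, 2 entered, and both were called higher. They are shown because they lie side by side on the minus strand of the mitochondrial genome and share base 5826 (GENCODE, GRCh38):
MT-TC (chrM:5761-5826, minus strand): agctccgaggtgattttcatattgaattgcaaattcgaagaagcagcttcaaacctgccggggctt
MT-TY (chrM:5826-5891, minus strand): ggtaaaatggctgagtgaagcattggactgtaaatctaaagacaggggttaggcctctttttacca
MT-TY, the transfer RNA for tyrosine, had 25.7, 39.2, 27.1 and 69.1 CPM in the cells, against 14.4 and 3.85 CPM in mini-bulk, a ratio of 4.25 (2.31 to 8.70) on 148 and 11 counts. MT-TC, for cysteine, had 28.2, 23.8, 20.5 and 54.3 CPM in the cells, against 9.63 and 5.78 CPM in mini-bulk, a ratio of 4.11 (2.09 to 9.20) on 117 and 9 counts. Cell 4 was highest for both. Summed mini-bulk held 9.63 CPM of MT-TY and 7.88 CPM of MT-TC, under the 20 CPM filter, so both entered only through the cells and had to stand higher there. Neither passed the 20 CPM filter without cell 4.

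The genes with the largest ratios were a mixed set. MPG, a DNA repair glycosylase, had 45.3, 75.6, 45.8 and 4.93 CPM in the cells, against 0 and 1.93 CPM in mini-bulk, where it had 1 count. The ratio of 45.8 has an interval from 8.09 up to 1821, and the gene entered only through the cells. PLA2G4B, a phospholipase whose sequence is mostly shared with a readthrough gene and which is uncertain, had 35.5, 25.2, 0.934 and 125 CPM in the cells and no count in mini-bulk, at least 18.4-fold higher with a floor of 3 counts over both pools. POP4 and RPP38 are protein subunits of RNase P. POP4 had 100.5, 326, 30.8 and 15.8 CPM in the cells, against 11.2 and 7.71 CPM in mini-bulk, a ratio of 10.5 (5.77 to 21.1). RPP38 had 23.3, 23.8, 13.1 and 77.9 CPM in the cells, against 3.21 and 5.78 CPM in mini-bulk, on 129 and 5 counts. RPPH1, the RNA of that enzyme, had 686, 978, 792 and 1267 CPM in the cells, against 419 and 331 CPM in mini-bulk, a ratio of 2.47 (2.24 to 2.74). RPPH1 was the 1 called higher of 4 small structured RNAs that entered, against 2.58% of all genes. POP4 and RPP38 were picked for their large ratios. Other subunits of RNase P were not counted, so these values do not describe the enzyme as a whole. MPG, RPP38 and RPPH1 overlap other genes and are uncertain. MPG did not pass the 20 CPM filter without cell 1, 2 or 3, nor did PLA2G4B and RPP38 without cell 4. NBDY, which encodes a small protein of P-bodies, had a ratio of 8.46 (4.38 to 18.7), LRRC58 one of 8.20 (5.55 to 12.6), CTXN1 one of 9.34 (4.45 to 23.5) and CCDC85B one of 7.34 (3.65 to 17.3). In summed mini-bulk PLA2G4B, POP4, RPP38, NBDY, CTXN1 and CCDC85B also had under 20 CPM. Like MPG, they entered only through the cells and had to stand higher there.

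Another 4 called genes stood far apart in level, and all but MIR663A were picked out after their values were seen. MIR663A, a microRNA hairpin gene, had 779, 686, 355 and 652 CPM in the cells, against 44.9 and 71.3 CPM in mini-bulk, a ratio of 10.5 (8.23 to 13.7). Most of the hairpin (82.8% of its bases) is also exon of MIR663AHG, its host gene, so the value is uncertain and is no measure of the mature microRNA. That product is shown for its extreme composition, 90.9% G and C, with the seed (bases 2 to 8) in capitals (RefSeq, GRCh38.p14, chr20:26208243-26208264, minus strand):
hsa-miR-663a: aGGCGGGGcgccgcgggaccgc
MIR663AHG had 4008, 2393, 3252 and 3838 CPM in the cells, against 465 and 528 CPM in mini-bulk, a ratio of 6.92 (6.36 to 7.54). ANKRD30BL, within which RefSeq places an 18S rRNA pseudogene (RNA18SP), had 2070.3, 1948, 2349 and 2162 CPM in the cells, against 390.1 and 387 CPM in mini-bulk, a ratio of 5.54 (5.03 to 6.11). LINC00273 had 1156, 989, 538 and 1025 CPM in the cells, against 127 and 216 CPM in mini-bulk, a ratio of 5.4 (4.67 to 6.28). In all 4 genes every cell stood far above both pools. ANKRD30BL shares sequence with related genes and is uncertain. The share of 28S rRNA was also higher in the cells and that of 18S lower, and the part of rRNA reads in these 4 genes was not tested. Without them 166 genes were called higher and 489 lower.

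Of the 493 genes called lower, 258 had a count in every cell, 131 lacked one in 1 cell, 68 in 2, 26 in 3 and 10 in all 4. Genes near 0 in the cells entered only through mini-bulk, so their direction was set by the filter. RNF43, which restrains Wnt signalling at the membrane, had 0, 0, 0 and 0.987 CPM in the cells, against 77.0 and 108 CPM in mini-bulk: 1 count against 104, 329-fold lower with an interval of 57.8 to 13127. Most of its sequence is shared with an overlapping gene, and it is uncertain. SESN2, a stress-responsive gene downstream of p53, had no count in any cell, against 41.7 and 80.9 CPM in mini-bulk, at least 71.8-fold lower. SUSD2 and LRRN2 likewise had no count in any cell and 60 and 68 counts in mini-bulk, at least 63.3-fold and 71.8-fold lower. EPHX1, which hydrolyses epoxides, had 2 counts in the cells and 77 in mini-bulk, 122-fold lower (32.6 to 1024). CDH1, the adhesion molecule of epithelia, had 0, 0, 0.934 and 2.96 CPM in the cells, against 62.6 and 38.5 CPM in mini-bulk, 46.7-fold lower (17.3 to 177). Without mini-bulk 1, CDH1 did not pass the 20 CPM filter, and LRRN2 did not without mini-bulk 2. APOBEC3F and SIK1, also among the most lowered, share sequence with other genes and are uncertain.

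Nuclear long non-coding RNAs held 0.0850, 0.0557, 0.0752 and 0.169% of counts in the cells, against 0.195 and 0.171% in mini-bulk, a ratio of 0.524, with every cell below both pools. Of 11 that entered, 2 were called lower and 0 higher, against 7.54% and 2.58% of all genes, and the same 2 were called under the 3 other scalings, of 8 to 11 that entered. NEAT1, the scaffold of paraspeckles, had 240.1, 21.0, 195 and 36.5 CPM in the cells, against 799 and 755 CPM in mini-bulk, 6.17-fold lower (5.50 to 6.92). MALAT1, a resident of nuclear speckles, had 167, 37.8, 165 and 178 CPM in the cells, against 543 and 382 CPM in mini-bulk, 3.26-fold lower (2.89 to 3.69). The median log2 ratio of the list was -0.09, so the lower share rests on these abundant members. Short nuclear RNAs were thinly covered. RNU2-1, the U2 small nuclear RNA, had 0, 0, 27.1 and 7.89 CPM in the cells, against 53 and 28.9 CPM in mini-bulk, and the family row RF00004, with which it shares its sequence, had 0, 0, 274 and 77.0 CPM in the cells, against 536 and 289 CPM in mini-bulk. Both are uncertain, and the call of RF00004 was lost under each of the 3 other scalings. The most abundant row of all, RF00100, the family name under which 7SK reads stand, had 26147, 13972, 10877 and 27119 CPM in the cells, against 25711 and 20166 CPM in mini-bulk, and did not separate the inputs. It is uncertain too.

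**Figure D3:**
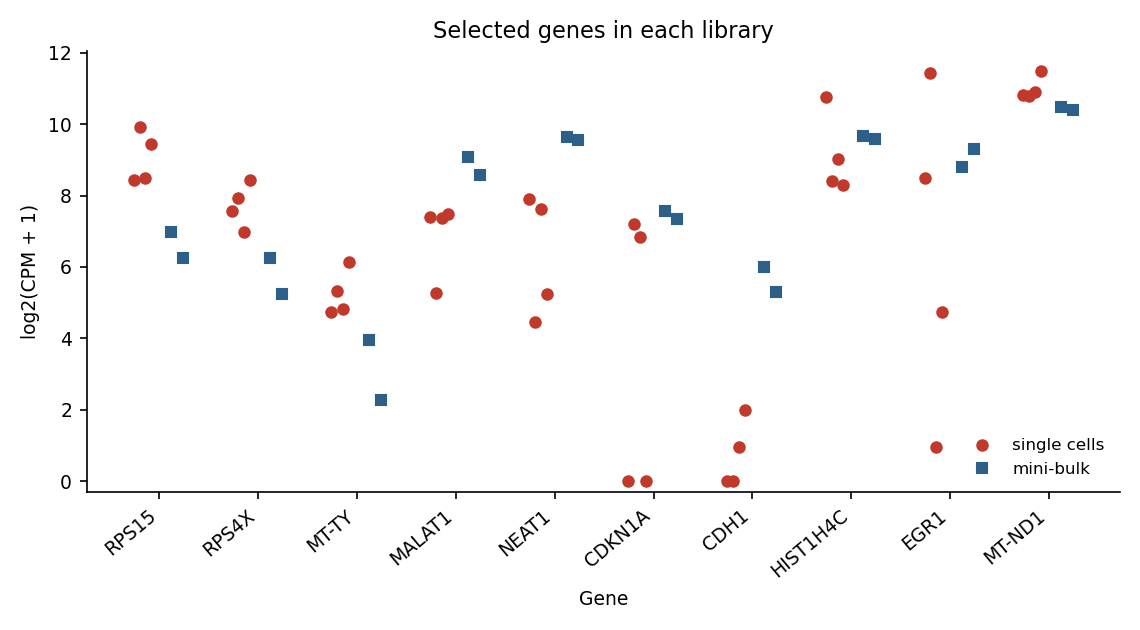
Level of 10 genes in each library, as log2(CPM + 1) on the y axis, with the 4 single cells as red circles in order 1 to 4 and the 2 mini-bulk libraries as blue squares. RPS15, RPS4X and MT-TY lie higher in every cell, MALAT1, NEAT1, CDKN1A and CDH1 lower in every cell, HIST1H4C is highest in cell 1, EGR1 spans from 0.934 to 2766 CPM between cells, and MT-ND1 varies little.

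Calls among genes of the cell cycle and of the p53 response were few and mostly lower, as they were among all genes (7.54% lower and 2.58% higher). Of 28 S-phase genes 3 were called lower and 0 higher, with a median log2 ratio of 0.13. Of these 3, 2 were called with TMM factors and 1 each with DESeq2 size factors and over all rows. CDC45, a part of the replicative helicase, had 0, 0, 2.80 and 1.97 CPM in the cells, against 48.2 and 30.8 CPM in mini-bulk, 29.1-fold lower (11.6 to 93.9). Summed cells held 1.38 CPM of CDC45, so it entered only through mini-bulk and had to stand lower in the cells. It did not pass the 20 CPM filter under any of the 3 other scalings or without mini-bulk 1. CDCA7 had 109, 68.6, 99.9 and 69.1 CPM in the cells, against 279 and 249 CPM in mini-bulk, 3.05-fold lower (2.59 to 3.58). Of 36 G2 and M-phase genes 1 was called higher and 4 lower, with a median of 0.07, close to that of all genes. Of 12 p53 targets 3 were called lower, and SESN2 among them did not pass the filter with DESeq2 size factors or over all rows. CDKN1A, the p21 inhibitor of cyclin-dependent kinases, had 0, 146, 113 and 0 CPM in the cells, against 188 and 160 CPM in mini-bulk. It was missing from 2 cells and close to mini-bulk in the other two, so its 2.81-fold lower level (2.31 to 3.42) is an average of unlike cells, and the call was lost with DESeq2 size factors and with scaling over all rows. DDB2 showed the same kind of split, with 50.2, 0, 44.8 and 0 CPM in the cells, against 62.6 and 65.5 CPM in mini-bulk, and was not called without cell 4.

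Other metabolic and housekeeping groups had 1 to 3 calls each. Of 15 cholesterol synthesis genes 3 were called lower, against 7.54% of all genes, FDFT1, MVD and DHCR7, and none of these calls was kept without cell 4, in which they had 8.88, 5.92 and 31.6 CPM. Of 18 glycolysis genes 1 was called each way: ENO1, enolase, had 2386, 4096, 2692 and 2342 CPM in the cells, against 1388 and 1403 CPM in mini-bulk, and GPI had 719, 53.2, 749 and 1312 CPM in the cells, against 1809 and 1578 CPM in mini-bulk. Without cell 2 neither was called, nor was ENO1 without mini-bulk 1 or GPI with DESeq2 size factors. Of 22 genes of chaperones and the proteasome 3 were called higher (13.6%, against 2.58% of all genes), the chaperonin subunits CCT3, with a ratio of 2.5 (2.17 to 2.91), and TCP1, with one of 3.12 (2.34 to 4.25), and the proteasome subunit PSMC1, with one of 2.22 (1.55 to 3.26). TCP1 and PSMC1 overlap other genes and are uncertain, and PSMC1 was not called without cell 2. HSP90AB1, a cytosolic chaperone, had 1319, 1519, 1461 and 1417 CPM in the cells, against 2385 and 2052 CPM in mini-bulk. Of 27 splicing proteins 2 were called higher, U2AF2 and HNRNPK, and 1 lower, SRSF7, whose call was lost with DESeq2 size factors and without cell 2. Of 23 translation factors EIF5B alone was called, as lower, and the call was lost under each of the 3 other scalings. The median log2 ratio of translation factors was 0.086, against 0.07 over all genes. GPI, HSP90AB1, HNRNPK and EIF5B share bases or sequence with other genes and are uncertain.

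**Figure D4:**
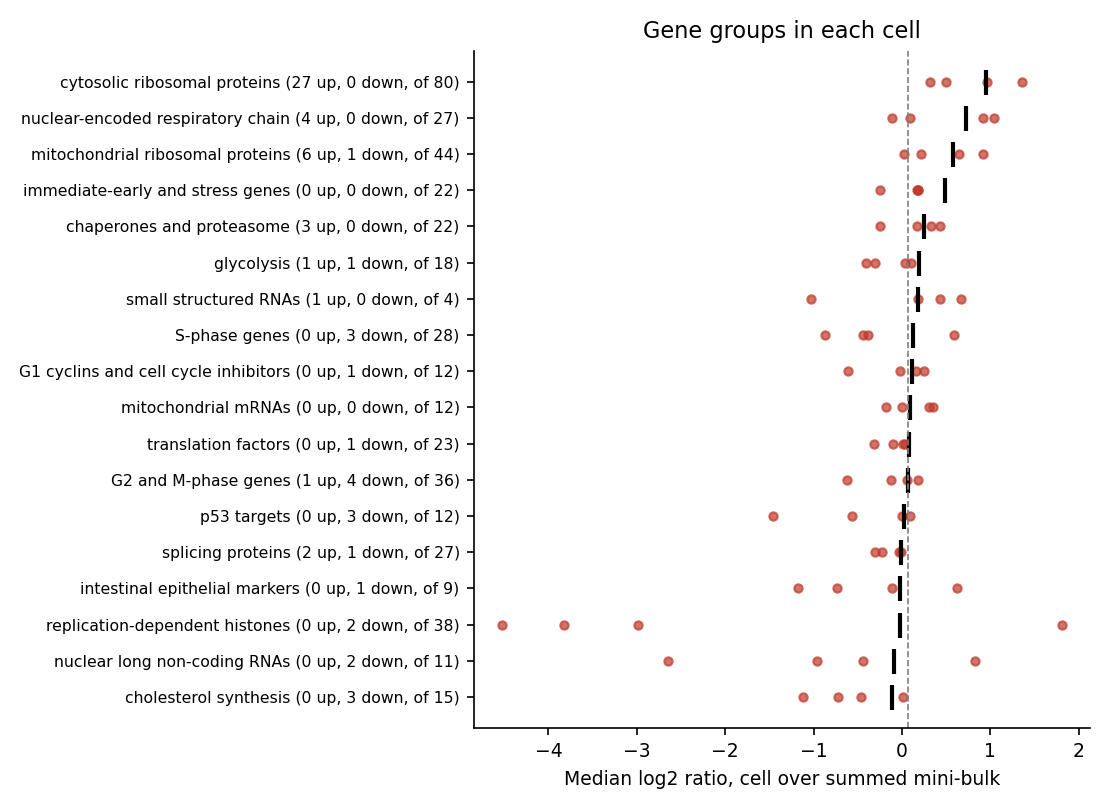
Median log2 ratio of each gene group to summed mini-bulk (x axis), with 1 red point per single cell and a black bar for the 4 cells summed; the y axis names the group with its members called higher (up), called lower (down) and entered, and the dashed line is the median of all genes for summed cells, 0.07. A bar is taken from summed counts and each point from 1 cell, so a bar may lie right of all its points. Histone mRNAs spread most between cells.

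Most genes that were well measured in mini-bulk were present in every cell. Of 3266 genes with at least 50 CPM in both mini-bulk libraries, 2717 had a count in all 4 cells, and 549 (16.8%) lacked one in at least 1 cell: 447 in 1 cell, 87 in 2, 13 in 3 and 2 in all 4. Cells 1 to 4 lacked 4.32, 9.49, 1.90 and 4.75% of them. Between the pools the same loss was rare: of 3811 genes with at least 50 CPM in mini-bulk 1, 1 had no count in mini-bulk 2, and of 3744 chosen in mini-bulk 2, 2 had none in mini-bulk 1. The loss fell with level. A single cell lacked on average 22.6% of genes of 20 to 50 CPM in mini-bulk, 11.3% of those of 50 to 100, 4.36% of those of 100 to 200, 1.72% of those of 200 to 500, and none of the 291 genes above 500 CPM.

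Some genes missing from 2 cells were high in another. ANO1, a calcium-activated chloride channel, had 0, 0, 815 and 227 CPM in the cells, against 201 and 306 CPM in mini-bulk. SPRYD3 had 0, 0, 215 and 330.5 CPM in the cells, against 196 and 189 CPM in mini-bulk. TRAPPC10, part of a vesicle tethering complex, had 352, 0, 113 and 0 CPM in the cells, against 193 and 224 CPM in mini-bulk. In these 3 the cells bracket the pools, and their summed ratios were 1.23, 0.811 and 0.546. CLCN7, a lysosomal chloride transporter, had 0, 0, 197 and 34.5 CPM in the cells, against 236 and 272 CPM in mini-bulk. IPO13, a nuclear transport receptor, was low in all 4: 3.68, 0, 14.0 and 0 CPM in the cells, against 152 and 181 CPM in mini-bulk, 33.2-fold lower (20.5 to 57.3). It was picked for lacking a count in at least 2 cells. Summed cells held 4.98 CPM of IPO13, so it entered only through mini-bulk and had to stand lower in the cells. ANO1, TRAPPC10 and CLCN7 share bases or sequence with other genes and are uncertain.

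**Figure D5:**
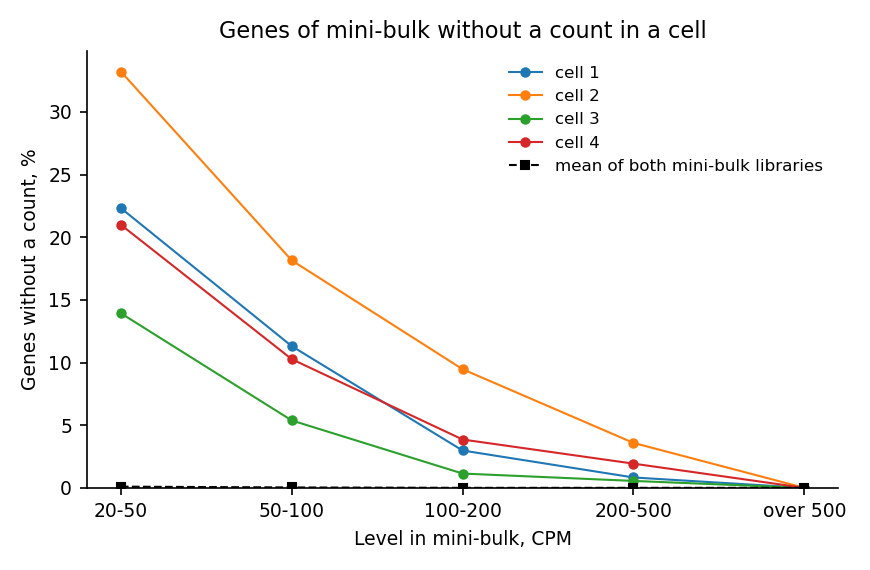
Genes without a count (y axis, percent) in each of the 4 single cells by their mean level in mini-bulk (x axis, CPM bins), with the mean over both mini-bulk libraries as black squares, which chose the bins and so lie near 0. The 4 curves fall to 0 above 500 CPM, and cell 2 is highest in each of the other bins.

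The spread between cells exceeded that between pools by far. Among 1649 genes with at least 100 CPM in both mini-bulk libraries and mini-bulk values within 1.5-fold of each other, the highest cell stood at least 4-fold above the lowest in 940 (57.0%), at least 8-fold in 594 and under 2-fold in 215. Each cell was taken at no less than 3 counts, so folds from cells under 3 counts are lower bounds. The median was 4.81-fold between the 4 cells, against 1.15-fold between the 2 pools, which the 1.5-fold limit had narrowed. With no such limit, 1063 of 1848 genes reached 4-fold between cells, against 0 between pools, where 17 reached 2-fold. The highest of 4 values stands further from the lowest than the higher of 2 does, so these values are not on an equal footing. Spread fell with level: the median was 7.93-fold for genes of 100 to 200 CPM, 4.50-fold for 200 to 500, 2.79-fold for 500 to 1000 and 2.12-fold for the 87 genes above 1000 CPM.

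Histone mRNAs, which are made for DNA replication, varied most. All 15 replication-dependent histone genes in this comparison differed at least 4-fold between cells, against 57.0% over all genes. Their median was 121-fold with the floor of 3 counts per cell, against 4.81-fold over all genes. Histone mRNAs held 2.30, 0.179, 0.130 and 0.228% of counts in cells 1 to 4, against 0.732 and 0.683% in mini-bulk, so cell 1 lay above both pools and the other cells below. HIST1H4C had 1744, 340.1, 520.2 and 315 CPM in the cells, against 820.2 and 765 CPM in mini-bulk. HIST1H2BM had 1071, 1.40, 0 and 0 CPM in the cells, against 303 and 250.5 CPM in mini-bulk. HIST1H2BF had 802, 1.40, 6.54 and 0.987 CPM in the cells, against 289 and 193 CPM in mini-bulk, and HIST1H3J had 2326, 0, 0 and 40.4 CPM in the cells, against 270 and 139 CPM in mini-bulk. Summed over the cells these differences levelled out: the mean share was 0.708% in the cells and 0.707% in mini-bulk, and 2 of 38 histone genes were called, HIST1H2BD and HIST1H4E, both lower. HIST1H4E was not called with DESeq2 size factors or with scaling over all rows. Summed cells held 6.36 CPM of HIST1H2BD, so it entered only through mini-bulk and had to stand lower in the cells. Without cell 1, 20 of 31 were called lower, against 743 of 6505 genes in all, where fewer cells must lie on 1 side. The median log2 ratio of the histone genes was then -2.27, and their share ratio was 0.253. S-phase genes did not single out cell 1: they held 0.242, 0.287, 0.445 and 0.240% of counts in the cells, against 0.283 and 0.288% in mini-bulk. G2 and M-phase genes were lowest in cell 1, with 0.556, 0.734, 0.848 and 0.786% in the cells, against 0.729 and 0.679% in mini-bulk. Histone genes resemble each other, and HIST1H2BM, HIST1H3J, HIST1H2BD and HIST1H2AJ are uncertain as single genes.

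Immediate-early and stress genes also split by cell. None of 22 was called, 7 had a ratio of at least 2 and their median log2 ratio was 0.49. They held 0.449, 0.894, 0.479 and 0.405% of counts in the cells, against 0.351 and 0.383% in mini-bulk. EGR1, an immediate-early transcription factor, had 363, 2766, 0.934 and 25.7 CPM in the cells, against 445 and 634 CPM in mini-bulk. It thus ranged from far above to far below the pools, while the summed ratio was 1.20 (1.10 to 1.31). FOSL1, a member of the AP-1 family of factors, had 285, 841, 948 and 1180 CPM in the cells, against 284 and 295 CPM in mini-bulk, and cell 1 lay between the pools. Single genes outside these groups varied as widely. HAS3, a hyaluronan synthase, had 1174, 554, 437 and 0 CPM in the cells, against 286 and 245 CPM in mini-bulk. BMP4, a secreted growth factor, had 279, 995, 458 and 0 CPM in the cells, against 209 and 252 CPM in mini-bulk. TNS4 had 87.0, 0, 631 and 1005 CPM in the cells, against 486 and 459 CPM in mini-bulk. The glucose transporter SLC2A1 had 0, 35.0, 293 and 635 CPM in the cells, against 175 and 216 CPM in mini-bulk.

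At the steady end stood mitochondrial and housekeeping mRNAs. Of 10 mitochondrial mRNAs, 0 reached 4-fold between cells and the median was 1.66-fold. Chaperone and proteasome genes had a median of 1.75-fold with 0 of 6 at 4-fold, translation factors 1.86-fold with 2 of 14, and cytosolic ribosomal proteins 2.38-fold with 3 of 27. These genes are among the more abundant, where spread was smaller in general. Steady did not mean equal to mini-bulk: SF3A2, a splicing factor subunit, had 502, 449, 481 and 443 CPM in the cells, against 122 and 125 CPM in mini-bulk. DDX11, a helicase, was the most even of the 1649 genes, with 401, 434, 433 and 426 CPM in the cells, against 395 and 487 CPM in mini-bulk. ACTG1, a cytoplasmic actin, had 6888, 7087, 8472 and 8050.5 CPM in the cells, against 7928 and 9081 CPM in mini-bulk. These 3 genes share bases or sequence with other genes and are uncertain.

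The untreated libraries gave a like picture in part, and their cells are not independent of these. By the same rule 250 of 7526 genes (3.32%) were called higher and 553 (7.35%) lower in untreated single cells against untreated mini-bulk. Of these, 111 higher genes were called in both, 65.7% of the DASHed and 44.4% of the untreated calls, and 208 lower genes, 42.2% of the DASHed and 37.6% of the untreated calls. No gene was called in opposite directions. Cytosolic ribosomal proteins had 35 of 80 called higher and 0 lower in the untreated libraries. MALAT1 and NEAT1 were called lower and MT-TC higher in both. Other named calls did not repeat: in the untreated libraries MT-TY had a ratio of 1.57, HNRNPK 1.47 and CDKN1A 0.673, and none was called. Mitochondrial transfer RNAs there had a median log2 ratio of 0.64 over 7 that entered, against 1.94 over 2 here. For chaperones and the proteasome it was -0.091 over 25, against 0.25 over 22 here.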

How the data were processed

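Total RNA of HCT116 was measured with MATQ-seq in 4 DASHed single-cell and 2 DASHed mini-bulk libraries. The authors deposited 1 table of estimated counts for 57134 genes. The submitters' processing notes name kallisto 0.46.2. Not given in the sources used here are the build, the annotation, the strand setting and the step to genes. The program splits reads that fit several transcripts, so similar genes depend on each other. Estimated counts were rounded to whole numbers.

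Names were matched to GENCODE v29 (57130 of 57134, after 51 spreadsheet-damaged names were restored). The 547 rRNA rows (24 with counts) and 4 lincRNA rows were left out, and CPM were taken over the rest. Log2 ratios used a pseudocount of 1 CPM, and genes without counts a floor of 3 counts over the group. Spread between cells used a floor of 3 counts in each cell, also where a cell had fewer but not 0. A gene was uncertain if it shared at least 10% of its exonic bases, or of its 31-base words, with other genes. Ratio intervals are exact (Clopper-Pearson, conditional on the summed counts). The ratios, calls, intervals and thinning were tested on simulated counts. Those had no variation between cells beyond counting error, unlike these data. R 4.3.3, edgeR 4.0.16 and DESeq2 1.42.0 supplied alternative scaling factors only, with Python 3.11.15, pandas 2.3.3 and scipy 1.17.1 for the rest.

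The members, gene lists and alternatives were chosen with earlier results of these data known. Named genes were the 10 of largest ratio each way among called genes, with pseudogenes and clone names left out. Also named were up to 3 called members of each list (otherwise the 2 most abundant), the 10 of widest spread between cells, and the 10 most abundant in mini-bulk that lacked a count in at least 2 cells. Chosen after their values were seen were MIR663AHG, ANKRD30BL, LINC00273, SLC2A1, RF00100, RPS4X, RPL19, RPLP0, RPS12, HSP90AB1, HIST1H4C, MT-ND1, SF3A2, DDX11, ACTG1, RPL10A, RPS7 and the motif. Some genes that these choices name are counted but not reported here. The epithelial markers are from the list of cell type markers.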

Additional observations from a re-analysis of the deposited data

Results flagged for a closer look

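A cell is listed here when its gap to the nearest of the other cells, divided by the range of the 4, exceeded Dixon's 95% critical value for 4 samples. Chance alone gives about 1 in 20 such groups where values are normally spread, which does not hold for genes chosen for their wide spread between cells or for genes with 1 or 2 counts in 1 cell and none in the others. The list is a description of 4 cells. Of 27 gene groups and library values 5 met it, and of 108 named genes 23.

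Cell 1 stood apart in histone mRNAs, with 2.30% of counts against 0.228% in the next cell, and in its share of rRNA, 24.4% against 20.8%. Single histone genes followed: HIST1H4E had 1161 CPM in cell 1, HIST2H2BF 1243, HIST1H2BM 1071, HIST1H2AJ 1383, HIST1H2BF 802, HIST1H3J 2326, HIST1H4C 1744 and HIST1H2BD 28.2 CPM, and AL031777.3, a locus that overlaps histone genes, 991 CPM. SNORD3B-2 had 12.3 CPM in cell 1. SNORD3B-2, HIST2H2BF and AL031777.3 share bases or sequence with other genes and are uncertain.

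Cell 2 stood apart in immediate-early and stress genes, with 0.894% of counts against 0.479% in the next cell. EGR1 had 2766 CPM and CLDN4 349.9 CPM in cell 2, both the highest, and MALAT1 37.8 CPM, the lowest. Cell 3 stood apart in intestinal epithelial markers, with 0.617% of counts against 0.239%. KRT8 had 3510 CPM in cell 3, CDCA3 34.6 CPM, COL1A1, a fibroblast marker, 27.1 CPM and BCL6 1.87 CPM. Cell 4 stood apart in mitochondrial transfer RNAs, with 0.0205% of counts against 0.00854%. MT-ND1 had 2864 CPM in cell 4, CTXN1 74.0 CPM, RPP38 77.9 CPM, EPHX1 1.97 CPM, and RNF43 and DOK3 0.987 CPM each, where the other cells had no count of the last 3.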

How the results depend on the processing

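No named call changed direction under any alternative tried, but calls picked for at least 2-fold without overlap had little room to. Of 72 named calls 68 were kept with TMM factors, 46 with DESeq2 size factors and 46 with CPM over all rows. Of the 26 lost in each of those last cases, 16 and 19 no longer passed the 20 CPM filter. Genes called lower numbered 493 of the 6542 that entered in the main comparison. They numbered 246 of 5516 with DESeq2 size factors, 241 of 5163 over all rows, 215 of 3808 at 50 CPM or more and 2982 of 24220 with no filter. Leaving out 1 library at a time gave 225 to 356 higher and 698 to 799 lower calls, since fewer libraries must then lie on 1 side. With DESeq2 size factors the median log2 ratio was 0.48 for mitochondrial mRNAs, 0.70 for stress genes, 0.62 for chaperones and the proteasome, 0.33 for translation factors and 0.24 for splicing proteins. Over all rows these medians were 0.41 for mitochondrial mRNAs, 0.64 for chaperones, 0.26 for translation factors and 0.18 for splicing proteins. At 50 CPM it was -0.079 for glycolysis and 0.89 for p53 targets, and with no filter 0.64 for mitochondrial transfer RNAs. The share ratio of mitochondrial ribosomal proteins over all rows was 1.44, the ratio of genes with at least 10 counts 0.804, and 594 genes differed 8-fold between cells. Leaving out 1 library at a time, medians ran from -0.13 to 0.35 for glycolysis, 0.27 to 0.67 for stress genes, -0.29 to 0.25 for G1 genes, -0.11 to 0.092 for translation factors, -0.26 to 0.0069 for splicing proteins, 0.083 to 0.80 for chaperones and 1.55 to 3.11 for mitochondrial transfer RNAs, whose share ratio ran from 2.96 to 6.43. The cause of these shifts was not tested.

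No paired analysis was possible because the values come from no test and each single-cell sample is 1 cell. With 4 cells and 2 pools, a difference seen here describes these libraries. At the smallest total, 3 counts are 5.78 CPM.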
